A study of Danio rerio with 18 samples.

Results

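The genes described here encode the proteins of the cytosolic ribosome, measured as messenger RNA in whole brains of 4-month-old zebrafish that carry 0, 1 or 2 copies of the hu3528 allele of mfn2. The members were taken by name: every gene whose symbol starts with rpl or rps followed by a digit, plus rplp0, rplp1, rplp2 and rpsa, without rps27l and the rps6 kinases. This gave 83 of the 32057 genes in the deposited table, and all 83 passed the filter on low counts that left 20353 genes for testing. By their names, 46 belong to the large subunit and 36 to the small subunit, and 1, rps19bp1, is named after a protein that binds rps19 and is not a subunit of the ribosome. The table's symbols are partly written in the human style, so the gene taken as rpsa stands there as rpsa2, the only symbol that starts with rpsa. Symbols shared by a pair of gene IDs are printed with the ID.

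A ribosome joins a small subunit, which reads the messenger RNA, to a large subunit, which makes the peptide bond and passes the new chain through an exit tunnel. In vertebrates, messenger RNAs of ribosomal proteins begin with a run of pyrimidines, the TOP motif, through which nutrient and growth signals set their translation together. The proteins are made in matched amounts, and free rpl5 and rpl11, carried with the 5S ribosomal RNA, can bind Mdm2. The mutated gene, mfn2, codes for mitofusin 2, which sits in the outer mitochondrial membrane and fuses mitochondria.

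Of the 18 libraries, 6 are wild type (WT, +/+), 6 are heterozygous (Het) and 6 are homozygous mutant (Hom) for hu3528, a loss-of-function allele by the study's title. Each of 6 families is the offspring of 1 mating of its own heterozygous parents and gave 1 library per genotype. For each library 4 brains (2 female, 2 male) were pooled, from fish genotyped at 2.5 months and then kept in 1 tank per genotype, so tank and genotype cannot be told apart. Libraries are named below by genotype and family.

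The transcript of mfn2 lay at 25.4 to 34.1 normalized CPM (counts per one-millionth of the scaled library total) in Hom brains. In families 1, 3, 4, 5 and 6 it lay at 120 to 140 normalized CPM in WT and at 67.8 to 86.4 in Het. Family 2 went against its labels, with 75.2 in the library labelled WT and 117 in the library labelled Het. All libraries stayed in their labelled groups, so WT and Het below include these. Total counts ran from 21945070 to 42897654 per library. Neuronal markers, the check of the labelled tissue, were detected for 8 of 8 genes in every library and summed to 8130 to 10900 normalized CPM. In Hom of family 3, where the sum was 9170, single neuronal markers went both ways. One stmn2 copy (ENSDARG00000070537) was at 2820 (WT mean 366), and syt1, elavl3 and sv2a were also above their WT means. The other stmn2 copy was at 248 (823) and the snap25 copies at 2510 and 503 (5150 and 1030). The marker elavl4 was below its WT mean too. For 13196 genes above 5 CPM, the log2 deviation from each gene's median library had an SD of 0.22 to 0.32 in 15 libraries. It was 0.74 and 0.72 for Het of families 1 and 3, and 1.12 for Hom of family 3, and results are therefore given with and without these 3 libraries.

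The ribosomal protein genes moved as a block from library to library, and each genotype had libraries above and below the common median. The median log2 deviation of the 83 genes was −0.18 to −0.03 in 5 WT libraries and 0.34 in the WT library of family 6. In Het it was 0.49 in family 1 and 0.30 in family 3, and −0.11 to 0.10 in the other 4 families. In Hom it was −1.69 in family 3 and −0.02 to 0.26 in the other 5. Within 17 of the libraries the 83 genes had an SD of only 0.07 to 0.13 around their own median, and in the Hom library of family 3 the SD was 0.43. All 83 genes lay above their median in the Het libraries of families 1 and 3. Of the 83, 81 did so in WT and 80 in Hom of family 6, and 1 in Hom of family 3. Some other gene lists shifted the same way, given here for Hom of family 3, Het of families 1 and 3, and WT of family 6. Mitochondrial ribosomal protein genes had median deviations of −0.92, 0.33, 0.22 and 0.23. Translation factors and other TOP genes had −0.82, 0.23, 0.23 and 0.20, and ribosome assembly genes −0.52, 0.21, 0.23 and 0.09. Regulators of ribosomal protein translation had −0.01, −0.09, 0.00 and 0.02.

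**Figure D1:**
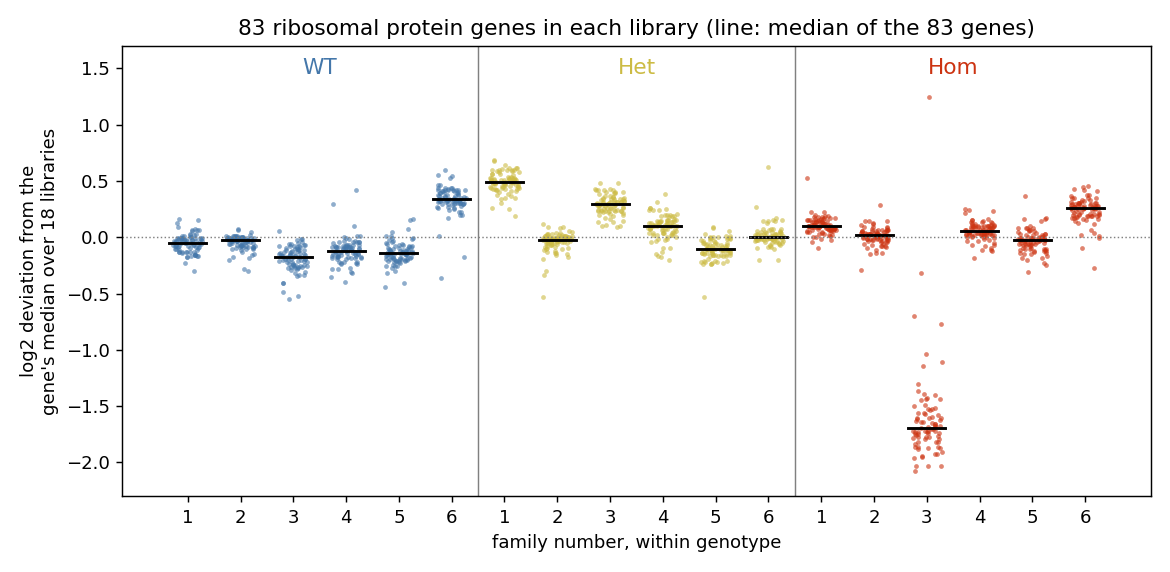
Each point is 1 of 83 ribosomal protein genes, placed by its log2 deviation from its own median over 18 libraries (vertical axis) in each library (horizontal axis: family, within genotype), and the line is the median of the 83. The points form narrow bands, and the band of the Hom library of family 3 lies at a median of −1.69.

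The highest and the lowest libraries were mostly the same from gene to gene. The Het library of family 1 was the highest of all 18 for 78 of the 83 genes. The 4 highest libraries of a gene included the Het library of family 1 for 82 genes, the WT library of family 6 for 80, the Hom library of family 6 for 75 and the Het library of family 3 for 74. The Hom library of family 3 was the lowest for 81 genes. The second lowest varied more, and was WT of family 3 for 40 genes and WT of family 5 for 17. These are counts over genes of the same libraries, not over replicates.

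Markers of other cells moved with the block in some of these libraries and not in others. Of 6 erythrocyte marker genes matched, 4 passed the filter, and none was at 0 in every library. Their summed level was 3990 normalized CPM in Het of family 1, and 2700 and 3170 in WT and Hom of family 6, each the highest of its genotype. It was 256, the lowest of all, in the Hom library of family 3. The lowest sums of WT and Het were 897 and 943. The WT library of family 1, at 2370, had a median ribosomal protein deviation of −0.05. In the Het library of family 3, where that deviation was 0.30, the erythrocyte sum was 1610, below the 1800 and 1920 of Het of families 2 and 6. Summed microglial markers were lowest in Hom of family 3, at 619, and highest of their genotype in WT of family 6 (1180) and Het of family 1 (1380), with 1350 in Het of family 3. In Hom of family 6 they were at 1680, within the 1510 to 2130 of the other Hom libraries besides family 3. Summed oligodendrocyte markers (8 of 8 genes tested) were lowest in Hom of family 3, at 7010, and highest in Het of family 3, at 28300, with 8210 in Hom of family 4, whose ribosomal protein deviation was 0.06. Of 13 oocyte marker genes matched, 3 passed the filter, and their sum over the list was 142 for Hom of family 3. It was 3.85 to 6.89 in WT, 3.64 to 6.81 in Het and 3.97 to 5.33 in the other Hom libraries. In these 17, zp2.1, a gene of the egg coat, was at 0. The mitochondrially encoded protein genes took 1.93% of counts in the Hom library of family 3 and 5.18% to 6.19% in the other Hom libraries. The part of other cells in the ribosomal protein levels was not tested, and in pooled brains fewer cells of a type and less RNA per cell cannot be told apart.

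The stalk of the large subunit, to which translation factors bind, is built on rplp0 with rplp1 and rplp2. The level of rplp0, the highest of all 83 genes, had in WT a lowest, median and highest value of 877, 922 and 1228 normalized CPM. In Het these were 896, 1069 and 1338, and in Hom 293, 1006 and 1224. These CPM are not divided by gene length, so levels are compared between libraries and not between genes. The groups overlapped, and the Hom library of family 3 stood alone at the bottom. The fold change of rplp0 in Hom against WT was −0.11 ± 0.23 on the log2 scale (SE; adjusted p = 0.844, edgeR's quasi-likelihood test). Without the 3 libraries it was 0.11 ± 0.06 (adjusted p = 0.327). In the same order, rplp1 was at 364, 375 and 563, then 380, 433 and 548, then 123, 422 and 547. For rplp2 they were 169, 177 and 242, then 181, 207 and 253, then 59.8, 204 and 213. All 3 stalk genes therefore had overlapping groups with the same lone library. The large subunit protein rpl12, at the base of the stalk, lay at 404 to 589 in WT, 417 to 640 in Het and 123 to 519 in Hom.

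The 5S particle is made of rpl5 and rpl11 with the 5S RNA. One rpl5 copy (ENSDARG00000015862) had lowest, median and highest levels of 274, 293 and 353 normalized CPM (WT), 279, 318 and 423 (Het) and 153, 330 and 372 (Hom). The other (ENSDARG00000020197) was at 233, 253 and 336, then 242, 278 and 376, then 119, 270 and 321. The values of rpl11 were 272, 289 and 396, then 278, 325 and 433, then 102, 327 and 375. Again the groups overlapped, and the Hom library of family 3 was the lowest of the 18 for each. Their fold changes in Hom against WT were 0.02 ± 0.18, −0.06 ± 0.20 and −0.07 ± 0.23 on the log2 scale, with adjusted p of 0.976, 0.899 and 0.905 by edgeR. Without the 3 libraries they were 0.16 ± 0.05, 0.10 ± 0.07 and 0.13 ± 0.07, with adjusted p of 0.0554, 0.400 and 0.287.

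In the small subunit, rpsa lies on the outer face near the mRNA exit, and rpsa2 was at 639, 650 and 920 normalized CPM (WT, again lowest, median and highest), 647, 765 and 1077 (Het) and 212, 700 and 834 (Hom). The mRNA entry site protein rps2, the second most abundant of the 83 by CPM, was at 627, 687 and 980, then 650, 786 and 1112, then 269, 777 and 1002. The large subunit protein rpl6, next by CPM, was at 597, 682 and 899, then 656, 765 and 1016, then 195, 705 and 898. None of these separated the genotypes. The lowest 3 levels belonged to rps11l, at 0.0789 to 1.49 over all libraries, rpl26 at 2.24 to 7.83 and rps19bp1, at a mean of 20.3 ± 2.50 in WT and 21.2 ± 4.42 in Het (SD, n = 6) and a lowest of 11.1 in Hom. For rps11l the median count was 9.5, against up to 28073 for other members, so its values carry a large counting error.

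**Figure D2:**
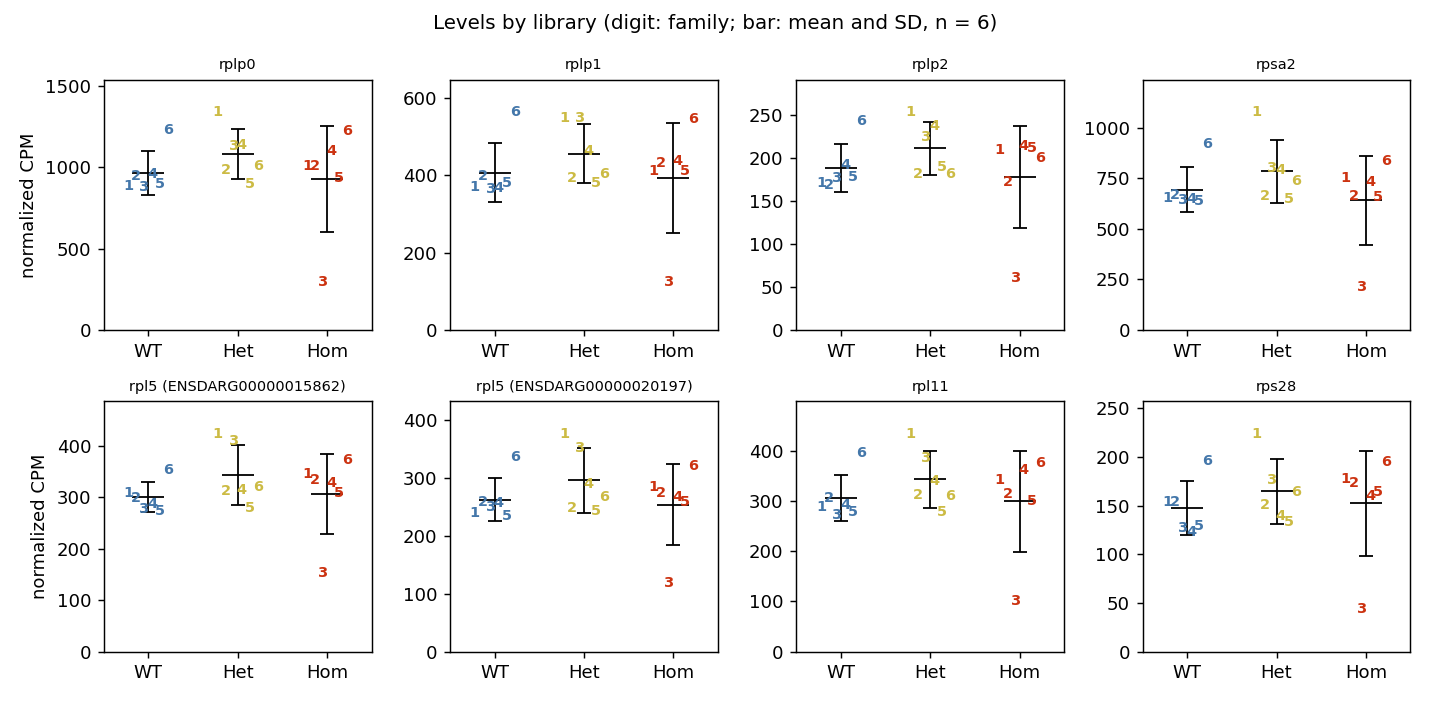
Normalized CPM (vertical axes, from 0) of 8 ribosomal protein genes in each library, the digit giving the family, with the mean and SD (bars, n = 6) of WT, Het and Hom. The Hom library of family 3 lies below all others in each panel, with rplp0 at 293 and rps28 at 44.0.

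None of the 83 genes passed the test in Hom against WT (edgeR's quasi-likelihood test with genotype and family, Benjamini-Hochberg adjusted p under 0.05), where 1.92% of all genes tested did. In Hom against Het, where 1.99% of genes passed, and in Het against WT, where 0% did, the count of ribosomal protein genes was also 0. At an unadjusted p under 0.05 the count was 0 of 83 in all 3 comparisons, against 2919, 4428 and 524 of 20353 genes in Hom against WT, Hom against Het and Het against WT. DESeq2, with 5.18%, 7.99% and 0.00983% of all genes called in the same order, also called none, and gave 1, 0 and 0 members at an unadjusted p under 0.05. The median SE of a member was 0.23 to 0.24, so changes of the size seen here were not detectable with these 18 libraries.

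The median log2 fold change of the 83 genes was −0.12 in Hom against WT, beside 0.04 for all genes tested, and 5 of the 83 were above 0. In Het against WT it was 0.18, beside 0.01 for all genes, and all 83 were above 0. In Hom against Het it was −0.29, beside 0.06, with 1 of 83 above 0. These comparisons share libraries, and the 83 genes share all of them, so their common sign is not 83 separate measurements. Large and small subunit genes gave nearly the same medians, −0.12 and −0.11 in Hom against WT and 0.18 each in Het against WT. By role, the medians in Hom against WT were −0.12 for the stalk, −0.06 for the 5S particle, −0.09 for the exit tunnel, −0.14 for mRNA entry and decoding and −0.12 for the platform and mRNA exit.

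Since none passed, the genes of smallest p are given only as values. In Hom against WT they were rps11l (1.13 ± 0.55, adjusted p = 0.376 by edgeR), rps19bp1 (−0.19 ± 0.16, 0.631), rpl13a (−0.24 ± 0.24, 0.687), rpl24 (−0.21 ± 0.22, 0.691) and rpl38 (−0.20 ± 0.21, 0.708). In Het against WT they were rpl5 (ENSDARG00000015862), rps11l, rps27.1, rpl22l1 and rpl31, with 0.20 to 0.62 and an adjusted p of 0.903 each. In Hom against Het they were rpl22l1, rpl24, rps15, rps27.1 and rps16, with −0.38 to −0.35 and adjusted p of 0.286 to 0.305.

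The sign of each of these medians changed without the 3 libraries that stand apart. Family 3 then kept only its WT library, and family 1 had no Het library. With family in the fit, a family of 1 library adds nothing to a comparison of genotypes, so these values rest on the other families. The median of the 83 genes in Hom against WT was 0.09, with 77 above 0, beside 0.02 for all genes. In Hom against Het it was 0.09, with 79 above 0. In Het against WT it was −0.01, with 35 above 0. The median SE dropped to 0.07 and 0.08. In these 15 libraries 8.05% of genes passed in Hom against WT, 4.77% in Hom against Het and 0% in Het against WT, and the counts of ribosomal protein genes were 1, 0 and 0 of 83. Over these libraries, summed microglial markers (10 of 11 matched genes tested, none at 0 in every library) were at 1510 to 2130 normalized CPM in Hom and 804 to 1180 in WT. Neuronal sums were at 8130 to 9410 in Hom and 9560 to 10800 in WT. Lymphocyte sums (7 of 11 matched genes tested) were at 13.1 to 23.4 in Hom and 5.02 to 11.1 in WT. None of these 3 sums overlapped between Hom and WT. The sums of radial glia, oligodendrocyte, erythrocyte, oocyte and endothelium markers did overlap, with radial glia at 4340 to 5800 in Hom and 4860 to 6520 in WT. The part of any of these cells in the medians was not tested. The share of all genes without such overlap is not given here. The sums weigh abundant genes most, and single neuronal markers went both ways. In Hom of family 6 a snap25 copy (ENSDARG00000020609) was at 3760 (WT mean 5150), and elavl4, sv2a, the other snap25 copy and a stmn2 copy were also lower. There elavl3 was at 330 (295), syt1 at 1020 (1010) and the other stmn2 copy at 386 (366). At an unadjusted p under 0.05 there were 10, 11 and 1 of 83, beside 23.4%, 19.1% and 2.83% of all genes tested. With family 2 left out as well, 0 of 83 passed by edgeR in each, where 5.85%, 2.84% and 0.00962% of genes did. There 5, 4 and 0 of 83 had an unadjusted p under 0.05, beside 21.4%, 16.4% and 3.07% of all genes.

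The 1 member that passed without the 3 libraries was rps28, a small protein at the mRNA exit of the small subunit. Its lowest, median and highest levels were 123, 141 and 196 normalized CPM (WT), 133, 158 and 224 (Het) and 44.0, 169 and 195 (Hom). The groups overlapped. Over 15 libraries its log2 fold change in Hom against WT was 0.23 ± 0.06 (edgeR adjusted p = 0.0448). With all 18 libraries it was 0.01 ± 0.25 (adjusted p = 0.993), and rps28 was higher in Hom than in WT in 4 of 6 families. With family 2 left out as well as the 3 libraries its adjusted p was 0.104. The rpl5 copy ENSDARG00000015862 followed, at 0.16 ± 0.05 with an adjusted p of 0.0554.

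**Figure D3:**
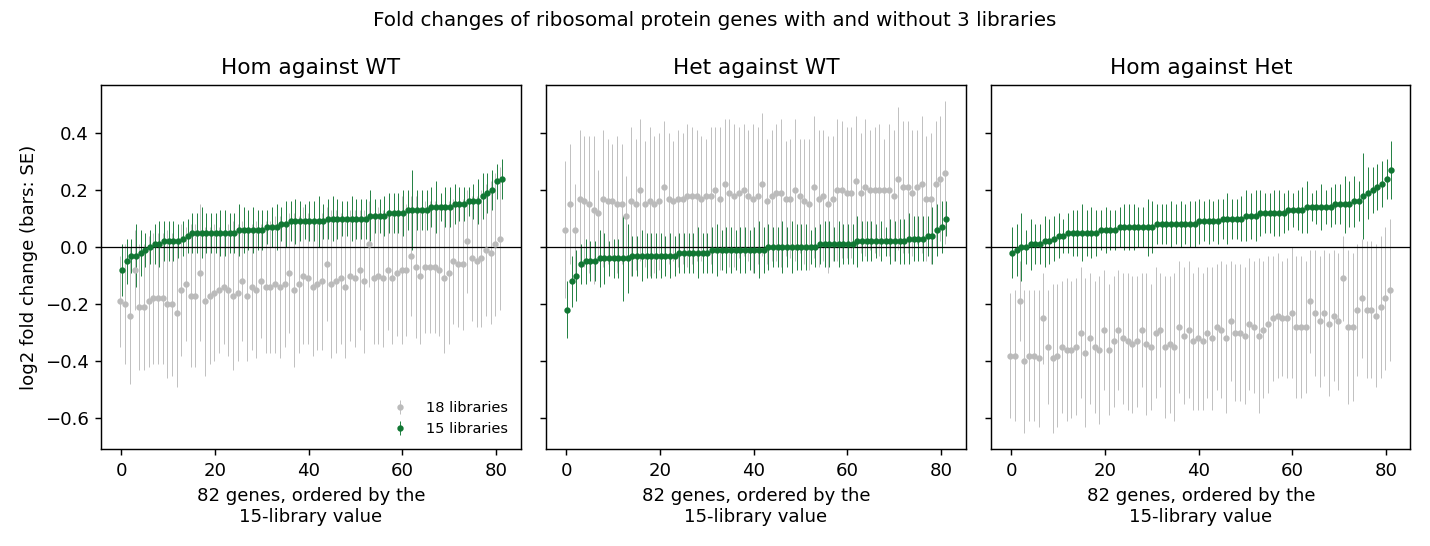
Log2 fold change with its SE (vertical axis) of 82 ribosomal protein genes in each comparison, ordered by the value without the 3 libraries (horizontal axis), with 18 libraries in grey and 15 in green. The gene rps11l, of largest error, is not drawn. Medians over the 83 genes move from −0.12 to 0.09 in Hom against WT, from 0.18 to −0.01 in Het against WT and from −0.29 to 0.09 in Hom against Het.

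Within families the sign of the median difference was not the same in all 6. The median difference of the 83 genes between Hom and WT was 0.17, 0.06, −1.49, 0.18, 0.10 and −0.08 on the log2 scale in families 1 to 6. The Hom library was higher for 78, 61, 1, 79, 76 and 13 of the 83 genes. Gene by gene, 11 members were higher in Hom in 5 of 6 families, 44 in 4 and 22 in 3, and none was higher in all 6. Between Het and WT the medians were 0.56, 0.01, 0.47, 0.21, 0.03 and −0.33. In family 6, where the WT library was itself high, 1 of 83 genes was higher in Het than in WT. Between Hom and Het the medians were −0.39, 0.04, −1.98, −0.04, 0.07 and 0.24.

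As a share of all counts, the 83 genes took 2.54% to 3.40% in WT, 2.63% to 3.92% in Het and 0.819% to 3.57% in Hom. Mean shares were 2.75% ± 0.322 for WT, 3.09% ± 0.509 for Het and 2.82% ± 1.00 for Hom (SD, 6 libraries each). The share of 0.819% was that of the Hom library of family 3, with an exact 95% binomial interval of 0.815% to 0.822%, which covers counting error only. Without the 3 libraries the means were 2.78% ± 0.175 in Het (n = 4) and 3.22% ± 0.244 in Hom (n = 5). In 5 of 6 families the share was higher in Hom than in WT, by 0.172 to 0.684 percentage points, and in family 3 it was lower, by −1.78. The 0.172 was that of family 6, where 70 of the 83 genes were lower in Hom by normalized CPM. Without the mitochondrially encoded genes the shares in family 6 were 3.80% in Hom and 3.75% in WT. With the mitochondrially encoded genes left out of the total, the means were 3.04% ± 0.355 in WT and 2.98% ± 1.08 in Hom, and 3.41% ± 0.259 in Hom without family 3 (n = 5). Those mitochondrial genes took 8.68% to 10.5% of counts in WT and 1.93% to 6.19% in Hom. Leaving them out moved the difference of Hom from WT from 0.0634 to −0.0583 percentage points.

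In the Hom library of family 3 the members were not all low by the same amount. Among the lowest deviations were −2.07 for rpl28, −2.04 for rpl31 and −2.03 for a copy of rps26 (ENSDARG00000037071). Toward the other end lay the rpl5 copies at −1.04 and −1.14, rpl26, a protein at the exit tunnel, at −1.11, and rpl22l1 at −1.30. Beyond these stood rps19bp1 at −0.77, rpl7l1, named as rpl7-like, at −0.70 and rps11l at 1.25. The mean level over all libraries was 41.8 normalized CPM for rpl22l1, 19.8 for rps19bp1 and 5.31 for rpl26, all low in CPM for a member.

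**Figure D4:**
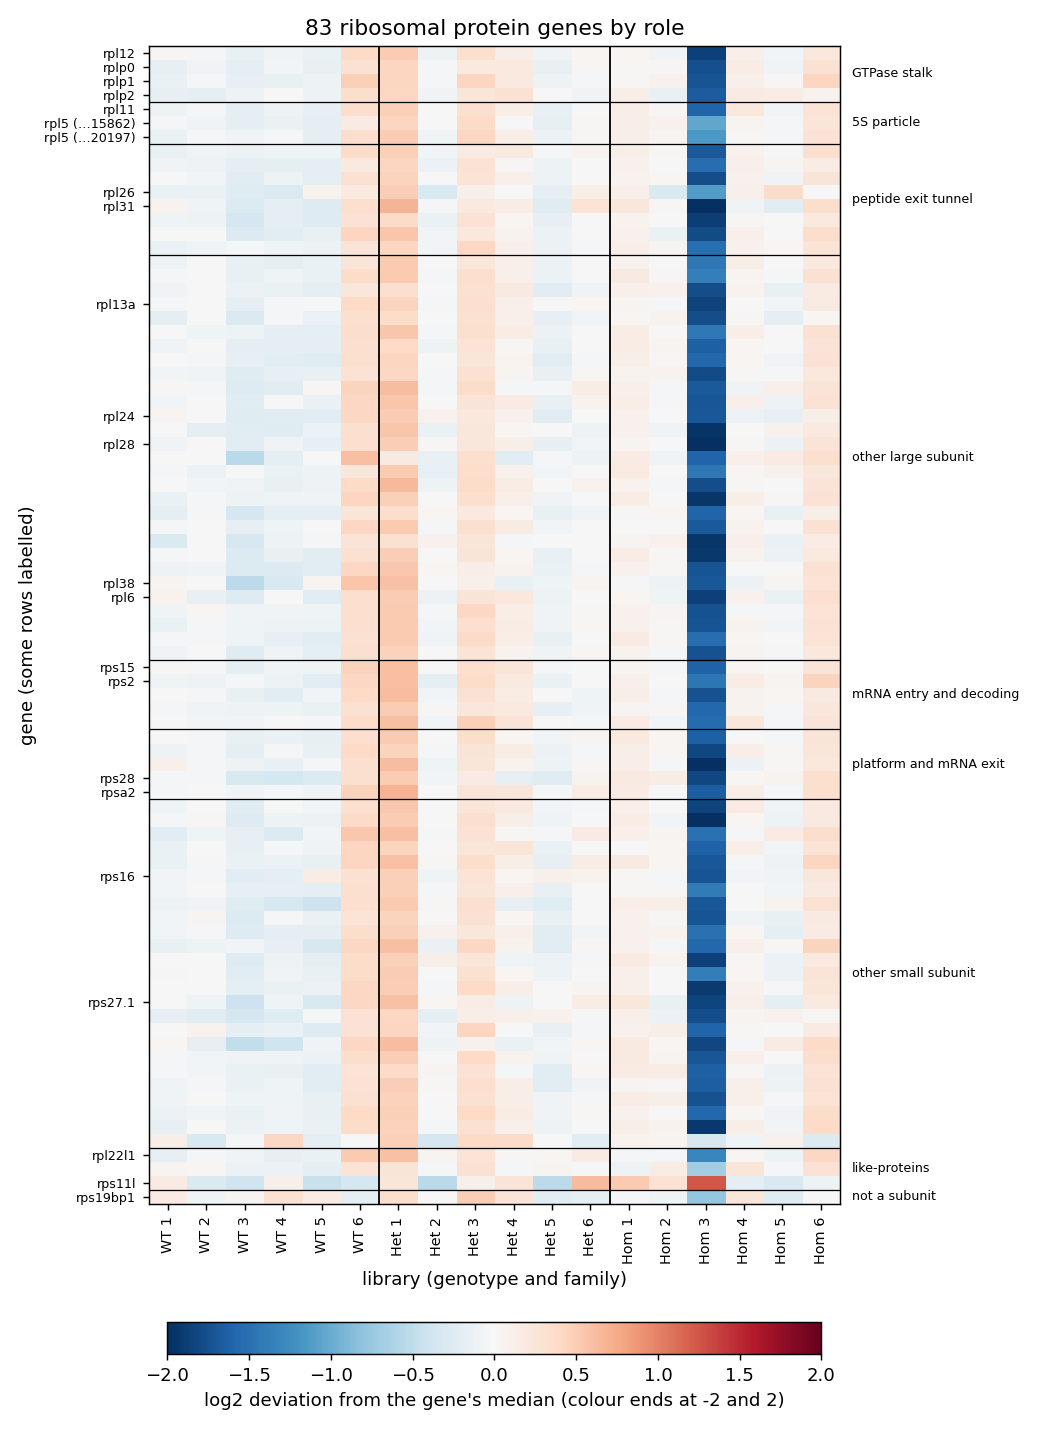
Log2 deviation of each ribosomal protein gene (rows, grouped by role, some labelled) from its median, in each library (columns, by genotype and family), with colours ending at −2 and 2. The dark column is the Hom library of family 3, at a median of −1.69, and the pale red columns are the Het libraries of families 1 and 3, the WT library of family 6 and the Hom library of family 6.

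Whether the genotypes use different copies of the same ribosomal protein was asked with log2 ratios of counts within a library, which do not depend on the scaling. Zebrafish keep duplicates of some of these genes, and reads of near-identical copies may have been split or lost in counting, whose treatment of such reads is not given in the sources used here. The 2 pairs reported here that share a symbol, of rpl5 and rps26, differed between genotypes by a mean of −0.12 to 0.08, the 4 other pairs of paralogs by −0.05 to 0.28, and the 8 like-named pairs of different proteins by −0.11 to 0.06. The ratio of the rpl5 copies (ENSDARG00000015862 over ENSDARG00000020197) averaged 0.20 ± 0.10 for WT, 0.22 ± 0.07 for Het and 0.28 ± 0.05 for Hom (SD, n = 6). That of rps27.1 over rps27.2 averaged −0.40 ± 0.17, −0.39 ± 0.17 and −0.44 ± 0.16. Neither moved by more than its spread. For 14 pairs and 3 comparisons, 42 exact two-sided sign permutation tests over 6 families gave a lowest adjusted p of 0.656. The smallest p that 6 families allow is 0.03125, so after adjustment none could pass unless most of the 42 reached it, and these tests leave the question unanswered. The ratio of rpl13a over rpl13, 2 different large subunit proteins, was lower in Hom than in WT in 6 of 6 families, by −0.11 ± 0.05 (SD; exact p = 0.03125; adjusted p = 0.656).

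In the Hom library of family 3 the ratio of rpl7l1 over rpl7 was −3.23, beside a mean of −4.29 ± 0.08 for WT and −4.35 ± 0.13 for Het (SD, n = 6). The rpl5 ratio in that library was 0.36, as in the WT library of family 1.

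The gene rps27l, left out by the rule, encodes a paralog of rps27. Its level was 29.4 to 75.5 normalized CPM in Hom and 7.48 to 15.5 in Het, and the highest WT library was at 14, so Hom did not overlap with the others. Its log2 ratio to rps27.1 was −4.77 ± 0.20 for WT, −5.01 ± 0.23 for Het and −2.59 ± 0.77 for Hom (SD, n = 6). The mean difference of Hom from WT was 2.18 ± 0.62 (SD over 6 families), and 2.00 without the Hom library of family 3. It is given as a description, since the gene was chosen with its result known. The rps27.1 and rps27.2 genes themselves lay at 304 ± 64.3 and 399 ± 66.8 in WT and at 286 ± 105 and 385 ± 129 in Hom.

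**Figure D5:**
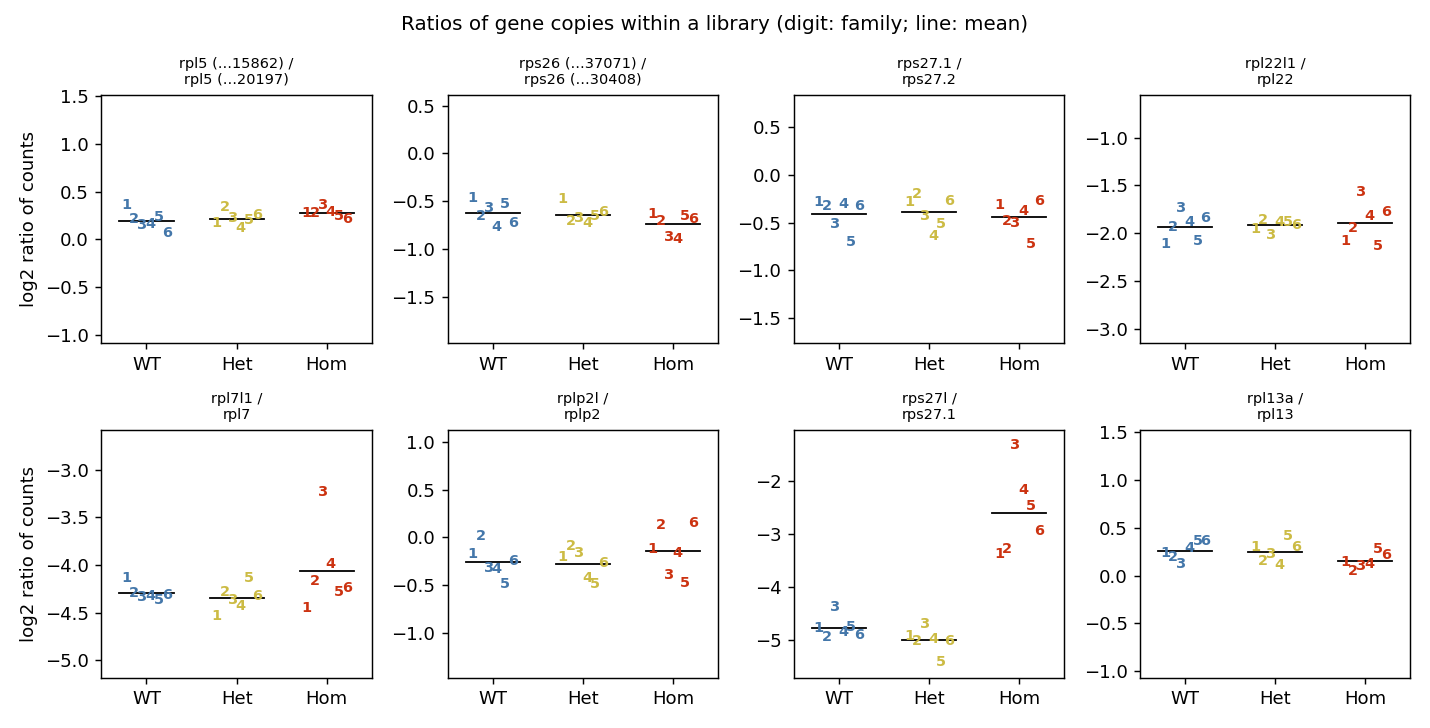
Log2 ratio of counts of 8 pairs of gene copies, paralogs or like-named genes within each library (vertical axes; the digit is the family and the line the mean of WT, Het or Hom). The ratio of rps27l over rps27.1 is higher in Hom, by a mean of 2.18 against WT, and the other ratios overlap between genotypes.

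To ask whether any member departs from the block, the same test was run with libraries scaled by the members' own summed counts, an alternative added after the data were seen. This scaling moves the median log2 fold change of all genes from 0.04 to 0.25 in Hom against WT, and fold changes under it are relative to the members. With 0.865%, 0.811% and 0% of all genes called in Hom against WT, Hom against Het and Het against WT, 0 of 83 members passed by edgeR. The count at an unadjusted p under 0.05 was 0 as well, beside 8.32%, 11.1% and 0.879% of all genes. Relative fold changes ran from −0.13 to 1.37 in Hom against WT, with rps11l at the upper end. The lowest adjusted p over the 15 libraries was 0.184, for rpl13a.

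Other genes of the pathway were taken from lists written with earlier results of these data known. Of 3 tested ribosomal proteins that carry other names, fau, which encodes a ribosomal protein fused to a ubiquitin-like one, deviated by −1.80 in the Hom library of family 3, rack1, which sits on the head of the small subunit, by −1.26 and faub by −0.95, beside a median of −1.69 for the members. None passed by edgeR or DESeq2 in any comparison with 18 libraries. An unadjusted p under 0.05 was found for 1, 0 and 0, beside 14.3%, 2.57% and 21.8% of all genes. The median log2 fold changes of the 3 were −0.19, 0.17 and −0.31 in Hom against WT, Het against WT and Hom against Het. The level of faub went with the members in part. It deviated by 0.23 in Het of family 1 and by 0.16 in WT of family 6. With 18 libraries its log2 fold change was −0.31 ± 0.16 in Hom against Het, beside a members' median of −0.29. In Het against WT it was −0.05 ± 0.16, beside 0.18 for the members. Over the 15 libraries it was −0.26 ± 0.08 in Hom against WT (edgeR adjusted p = 0.0701), where the members' median was 0.09.

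Of 36 translation factors and other genes with TOP transcripts, 1 fell by edgeR in Hom against WT and in Hom against Het, where 1.92% and 1.99% of all genes passed. DESeq2 called 3 and 2 of the 36, beside 5.18% and 7.99% of all genes. The gene that fell by edgeR was a copy of eef1a1 (ENSDARG00000069951), which brings aminoacyl-tRNA to the ribosome. Its mean level was 509 (WT), 528 (Het) and 391 (Hom) normalized CPM, with log2 fold changes of −0.39 ± 0.09 (edgeR adjusted p = 0.0458) and −0.44 ± 0.09 (0.0261). It also fell over the 15 libraries, with −0.34 ± 0.06 (adjusted p = 0.00416) in Hom against WT, where 4 of the 36 rose and 8.05% of all genes passed. They were npm1a, a nucleolar histone chaperone, at 0.51 ± 0.08, eif4a1a, an RNA helicase of translation initiation, at 0.24 ± 0.05, eef1da, an elongation factor subunit, at 0.46 ± 0.10, and eef1a1l1, an eef1a1 paralog, at 0.24 ± 0.06. The list's median went from −0.08 to 0.07, as the members' did from −0.12 to 0.09.

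Of 102 genes of ribosome assembly and ribosomal RNA processing, and of 37 genes of RNA polymerases I and III, 0 passed by edgeR in any comparison with 18 libraries. An unadjusted p under 0.05 was found for 1, 1 and 11 assembly genes and for 4, 0 and 8 polymerase genes in Hom against WT, Het against WT and Hom against Het. Of all genes tested, 14.3%, 2.57% and 21.8% had an unadjusted p under 0.05 in the same order. DESeq2 called 0 assembly genes in each, and 1, 0 and 2 polymerase genes, beside 5.18%, 0.00983% and 7.99% of all genes. Over the 15 libraries 3 of the 102 assembly genes rose by edgeR in Hom against WT and 1 fell, a smaller share than the 8.05% of all genes that passed. The kinase riok3 was at 0.42 ± 0.09, the GTPase gtpbp4 at 0.23 ± 0.06 and the nucleolar helicase ddx21 at 0.31 ± 0.08, while the helicase ddx51 was at −0.48 ± 0.13 (edgeR adjusted p of 0.0143, 0.0270, 0.0315 and 0.0441). No polymerase gene passed by edgeR over these libraries, where 6, 1 and 8 had an unadjusted p under 0.05. Of all genes, 23.4%, 2.83% and 19.1% were under that p.

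Among 39 regulators of ribosomal protein translation and of ribosome use, 0 passed by edgeR in any comparison with 18 libraries. With those libraries 7, 1 and 9 had an unadjusted p under 0.05 in Hom against WT, Het against WT and Hom against Het. The shares of all genes under that p were 14.3%, 2.57% and 21.8%. DESeq2 called 3, 0 and 2 of the 39, beside 5.18%, 0.00983% and 7.99% of all genes. Over the 15 libraries 4 of the 39 rose in Hom against WT, and 1, eif4ebp3, in Hom against Het, at 0.80 ± 0.15 (adjusted p = 0.00955). Of all genes, 8.05% and 4.77% passed in these comparisons, so the counts are near the background. They were mdm2, a ubiquitin ligase, at 0.36 ± 0.08, eif4ebp3 (ENSDARG00000041607), a repressor of cap-dependent translation, at 0.70 ± 0.14, its relative eif4ebp1 at 0.24 ± 0.07, and larp1b, related to the TOP-binding protein larp1, at 0.35 ± 0.08 (edgeR adjusted p of 0.0140, 0.00838, 0.0474 and 0.0141). The 5S particle genes rpl5 and rpl11, whose products can bind Mdm2, passed in none of these comparisons, with 18 or 15 libraries.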

How the data were processed

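Gene counts of 18 brain pools were deposited by the authors as 1 table of whole-number counts without normalization. The submitters' processing notes name STAR 2.7.0a, featureCounts from Subread 1.5.2 and the build GRCz11. Per the labels' protocols, polyA RNA was prepared with a NEBNext Ultra kit and sequenced as 150-base pairs. The annotation release, strand setting and treatment of multi-mapped reads are not stated there, so overlapping genes and near-identical copies are uncertain. Symbols, from a table of gene IDs, named 28988 of 32057 IDs.

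From the counts, edgeR 4.0.16 (R 4.3.3) fitted genotype and family over all 18 libraries with TMM scaling, after filterByExpr (minimum count 10, total 15), with the quasi-likelihood test and Benjamini-Hochberg adjustment over 20353 genes at 0.05. DESeq2 1.42.0, other scalings, no filter, no family block and left-out libraries were alternatives. The script was tested on simulated data. The SE is the log2 fold change over the square root of F. Normalized CPM use TMM-scaled totals, and log2 deviations use CPM plus 0.5. Copy ratios add 0.5 to each count and were tested within families by exact permutation of signs. P-values measure the spread between separate pools of 4 brains.

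Family is a block because the labels make it the offspring of 1 mating. Deviations from genotype means correlated with a median r of 0.17 over 18 same-family pairs, 10 of them above 0.1, and of −0.0824 over 90 other pairs. No libraries matched within sampling noise (lowest chi-square per degree of freedom 8.94).

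The members, lists and tests were chosen with earlier results of these data known. Genes named are the 5 of smallest p per comparison where fewer than 5 passed, the 3 highest and 3 lowest by CPM, the stalk, rpsa and 5S particle genes, copies and like-named pairs, members that are not subunits, and, by plan, up to 3 per pathway list. Beyond that number, every gene of those lists that passed by edgeR in Hom against WT over the 15 libraries was named. The extremes in the Hom library of family 3 and the levels of rps28, rpl12 and rpl28 were chosen after their values were seen. A few genes go unreported: the pathway lists, the pairs and the groups examined for single libraries omit them, a choice made after their values were seen, while counts of members and of all genes include them.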

Additional observations from a re-analysis of the deposited data

Results flagged for a closer look

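Within each genotype, 63 groups of 6 values were examined for a single library far from the others (by Dixon's test at the 95% level), and 22 were flagged, 11 of them for the Hom library of family 3. Chance flags about 1 in 20 groups, and the groups are not independent, since members move together.

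The Hom library of family 3 was low for the share of counts (0.819%, others 2.98% to 3.57%) and for the median member deviation (−1.69, others −0.02 to 0.26). It was low in normalized CPM for rplp0 (293), rplp1 (123), rplp2 (59.8), rpsa2 (212), rpl11 (102), rpl6 (195) and rps28 (44.0), and for the rpl5 copies ENSDARG00000015862 (153) and ENSDARG00000020197 (119).

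The WT library of family 6 was high for the share of counts (3.40%, others 2.54% to 2.75%) and for the median deviation (0.34). It was high in normalized CPM for rplp0 (1230), rplp1 (563), rplp2 (243), rpsa2 (920), rpl11 (396), rps2 (980) and rpl5 (ENSDARG00000020197, 336). The Het library of family 1 was high for rpsa2 (1080, others 647 to 802). The WT library of family 1 was high for the log2 ratio of rpl7l1 over rpl7 (−4.14, others −4.37 to −4.29). Erythrocyte and oocyte marker sums that move with some of these libraries stand beside the results, and their part was not tested.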

How the results depend on the processing

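The count of 0 members past the test was the same in all 3 comparisons without the replicate block (medians −0.07, 0.16 and −0.24 in Hom against WT, Het against WT and Hom against Het), under relative log expression factors, plain library totals, DESeq2, no filter, the members' own scaling, and with each family left out. Under plain library totals the medians were −0.02, 0.18 and −0.19 in the same order, beside 0.12, 0.01 and 0.15 for all genes. With that scaling 32, 83 and 1 of the 83 members were above 0. Without the 3 libraries that stand apart, 1 member passed in Hom against WT, and the medians were 0.09, −0.01 and 0.09. Without family 2 as well, none passed, the medians were 0.10, −0.01 and 0.10, and the share of counts differed by 0.518 percentage points in Hom against WT and by 0.451 in Hom against Het. Leaving out 1 family at a time, the medians ran from −0.17 to 0.09, from 0.10 to 0.28 and from −0.40 to −0.02, the count was 0 to 0 throughout, and family 3 gave the 0.09 and the −0.02. The difference in share of counts ran from −0.0608 to 0.432 percentage points, from 0.138 to 0.516 and from −0.475 to 0.206. For Hom against WT that difference was 0.0634 with all counts and −0.0583 without mitochondrially encoded genes, and the cause was not tested. For Hom against Het it was −0.269, and 0.433 without the 3 libraries. Of 490 settings for named members, 459 stayed within 1 SD of replicates and 31 moved. These members, which do not include rps28, passed the test in none of the settings. The planned motif count in promoters was not run, as no promoter sequences were used here. The median SE in Hom against WT, 0.23 with 18 libraries and 0.07 without the 3, limits which differences could be detected.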
